A study of Rattus norvegicus with 4 samples.

Results

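Proneural and early neurogenic transcription factors are the proteins that push a dividing retinal progenitor toward becoming a neuron. The factors described here are Neurog2, Atoh7, Insm1, Hes6, Bhlhe22, Sox4 and Sox11, 7 genes chosen by name, and every probe set that the platform annotation gives to exactly 1 of them was taken. That gave 11 probe sets out of 31099 on the array, for 5 of the 7 genes: 7 probe sets for Sox4 and 1 each for Neurog2, Hes6, Bhlhe22 and Sox11. All 11 passed the filter on dim probe sets. Atoh7 and Insm1 were matched by no such probe set and were not analysed here.

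The cells were retinal cells of Sprague Dawley rat embryos at embryonic day 18, dissociated and grown as neurospheres, which are floating clusters of dividing cells and their progeny. In 1 group the medium held epidermal growth factor (EGF), a mitogen for neural progenitors. In the other it held EGF together with endothelial cell conditioned medium, which is medium that has been kept on blood vessel lining cells and carries what they release. Each group had 2 arrays, and cells were pooled over embryos, 10 of them for the first pool. The EGF dose, the time in culture and the kind of endothelial cell are not given in the sources used here. Nothing ties a replicate number to a pool, so p-values concern these samples alone. Their spread was estimated partly from other probe sets of similar brightness, and on deposited values wholly so.

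Neurog2 and Atoh7 are basic helix-loop-helix proteins that bind E-box sequences as partners of the widely expressed E proteins. They switch on neuronal genes and the Notch ligands that hold neighbouring cells back, and Atoh7 is required for retinal ganglion cells. Hes6 is a relative of the Notch targets Hes1 and Hes5 that opposes Hes1 rather than neurogenesis, Insm1 is a zinc finger protein of cells leaving the cell cycle, and Bhlhe22 (also called Bhlhb5) is needed for some amacrine and bipolar cells. Sox4 and Sox11 are SoxC proteins, HMG-box factors of immature neurons with overlapping roles in ganglion cell formation. Id proteins and Hes and Hey repressors act against the proneural proteins.

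As deposited, the EGF arrays had medians of 6.03 and 6.25 log2 and the conditioned-medium arrays 6.84 and 6.56 log2, so values were quantile normalized before the main test. The median difference of all 21717 probe sets tested was -0.01 log2 on that scale, 0.43 log2 as deposited and -0.14 log2 with each array centred on its median. The words rose and fell are kept for probe sets past a limma adjusted p of 0.05 in the same direction under all 3 of these scalings. Differences are conditioned medium minus EGF alone after quantile normalization, with limma's standard error, unless stated otherwise. RNA quality differed between the groups: the 3' actin control exceeded the 5' one, a gap that degradation widens, by 1.99 and 2.08 log2 in the EGF arrays and by 1.54 and 1.37 log2 in the others. The part of this gap in the results was not tested. Of 9 retinal progenitor markers tested, 4 rose and 5 did not pass, with a median difference of 0.54 log2. Over all genes 8.53% rose at their brightest probe set. Fgf19 rose by 2.02 log2 from 5.22 and 5.55 log2, near the limit for dim probe sets of 4.77 log2, Ccnd1 by 1.35 log2, Six6 by 0.68 log2 and Sfrp2 by 0.63 log2. After quantile normalization alone 5 of the 9 were higher and 1 lower at that threshold. The lower one was Rax, at -0.24 log2 (limma adjusted p = 0.0345), which differed by 0.08 log2 as deposited. Pax6 lay between 12.59 and 12.85 log2 in the 4 arrays and differed by -0.15 log2. The rises numbered 2 without limma's intensity trend and 0 without either conditioned-medium array.

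With conditioned medium Sox11 rose 1.84-fold and Bhlhe22 fell 1.81-fold. Neurog2 was 1.33-fold higher after quantile normalization but did not pass under all 3 scalings. The 7 Sox4 probe sets were all lower after quantile normalization, by 1.07-fold to 2.07-fold, and none passed under all 3. Hes6 differed by -0.10 ± 0.06 log2 (SE) and did not pass. Of the 11 probe sets 1 rose and 1 fell, where 7.27% of all tested probe sets rose and 1.51% fell. After quantile normalization alone 2 of the 11 were higher and 5 lower at that threshold (limma), against 12.6% and 12.9% of all tested probe sets. Of the 5 lower, 4 were probe sets of Sox4. At the brightest probe set of each gene, 2 of 5 genes were higher and 2 lower, against 15.2% and 13.3% of all genes. The members' median difference was -0.31 log2, and 7 of the 11 values behind it come from a single gene, Sox4. In these bulk samples, fewer cells of a type and less RNA per cell cannot be told apart.

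**Figure D1:**
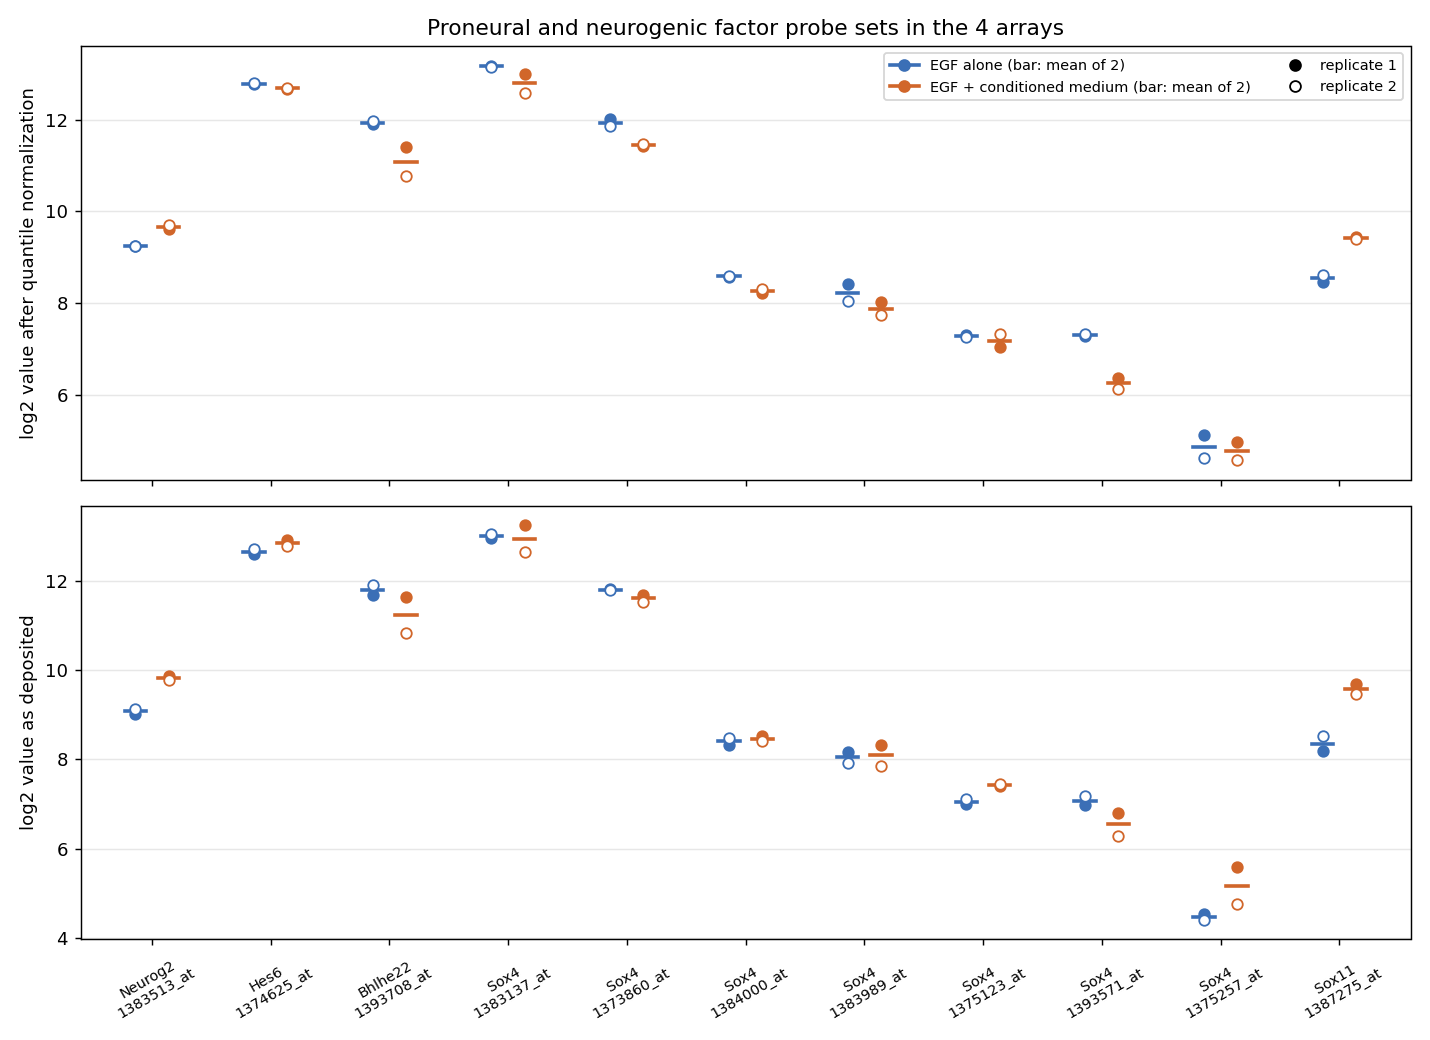
Log2 values of the 11 probe sets in each array, after quantile normalization (top) and as deposited (bottom). Filled points are replicate 1, open points replicate 2 and bars the mean of 2 arrays. The Sox11 and Neurog2 points with conditioned medium lie above both EGF points in both panels, and those of Bhlhe22 lie below.

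Sox11 and Neurog2 are the factors that were higher with conditioned medium after quantile normalization. Of the 7 genes, 4 had a promoter window in the RefSeq table. The 250 bases before their annotated starts are shown to set the sequence beside that measurement, from RefSeq with build GRCr8 and read 5′ to 3′ on the gene's strand. Capitals mark the E-box letters CANNTG, the core that helix-loop-helix proteins bind. The Sox11 stretch lies at chr6:49738795-49739044 on the minus strand and the Neurog2 stretch at chr2:218766955-218767204 on the plus strand.
Sox11: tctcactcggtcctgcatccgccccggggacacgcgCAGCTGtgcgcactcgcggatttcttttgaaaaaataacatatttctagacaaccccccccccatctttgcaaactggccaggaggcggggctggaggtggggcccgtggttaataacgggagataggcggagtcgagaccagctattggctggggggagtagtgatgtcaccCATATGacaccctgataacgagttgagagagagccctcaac
Neurog2: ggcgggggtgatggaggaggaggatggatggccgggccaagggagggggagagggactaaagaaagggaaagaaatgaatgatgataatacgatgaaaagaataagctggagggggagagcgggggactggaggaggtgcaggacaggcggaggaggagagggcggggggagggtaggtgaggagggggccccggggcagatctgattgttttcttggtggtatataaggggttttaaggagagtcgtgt
The Sox11 stretch held 2 E-boxes, CAGCTG and CATATG, whose first bases lie 214 and 41 bases before the start. The Neurog2 stretch held none. E-boxes read the same on both strands, and 65.5% of the 33469 such windows of 250 bases in the RefSeq table hold at least 1. The N-box CACNAG, a sequence that Hes repressors bind, was searched on both strands and was in neither stretch, whereas 37.2% of windows hold it, and it overlapped no E-box. A match is a description of letters and shows no binding.

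Neurog2, the proneural gene of this set with a probe set, measured 9.25 and 9.24 log2 under EGF alone against 9.62 and 9.70 log2 under conditioned medium. The 2 arrays with conditioned medium were both above the 2 with EGF, and arrays of a group lay close together. The difference was 0.41 ± 0.08 log2 (SE, limma adjusted p = 0.00540). As deposited it was 0.75 log2 (limma adjusted p = 2.72e-04), and with median-centred arrays 0.18 log2 (limma adjusted p = 0.208), which ended the call. Without limma's intensity trend the quantile normalized call was lost too (limma adjusted p = 0.0502). Without any 1 of the 4 arrays it was lost as well, with differences of 0.38 to 0.45 log2. In the fits without either conditioned-medium array every other probe set lost its call too, so that loss is not particular to Neurog2.

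Hes6, which proneural proteins induce, was among the brightest of the 11 probe sets. It measured 12.78 and 12.80 log2 under EGF alone against 12.67 and 12.70 log2 under conditioned medium. The arrays with conditioned medium were below both EGF arrays after quantile normalization and above both as deposited (0.20 log2), so the direction depends on the scaling. The limma adjusted p was 0.218 after quantile normalization, 0.275 as deposited and 0.0153 with median-centred arrays, where the difference was -0.37 log2. Neurog2 was also set against Hes6 in the same array. Within an array, where an overall shift cancels, Neurog2 minus Hes6 was -3.58 and -3.56 log2 under EGF alone against -3.03 and -3.01 log2 under conditioned medium as deposited. The change was 0.55 log2 as deposited and 0.52 log2 after quantile normalization. An exact two-sided permutation test over the arrays gave p = 0.333, the smallest p that 2 arrays against 2 allow.

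Bhlhe22, the amacrine and bipolar cell factor, measured 11.90 and 11.98 log2 under EGF alone against 11.39 and 10.77 log2 under conditioned medium. The groups did not overlap, but the conditioned-medium arrays lay far apart, with an SD of 0.44 log2 against 0.06 log2 for EGF (n = 2 each). The difference was -0.86 ± 0.15 log2 (SE, limma adjusted p = 0.00281), lower than all but 2.19% of tested probe sets. As deposited the fall was smaller (-0.55 log2, limma adjusted p = 0.00287), and with median-centred arrays larger (-1.12 log2, limma adjusted p = 1.90e-04). The deposited conditioned-medium values had an SD of 0.57 log2, but limma's SE of 0.16 log2 there came from its intensity trend alone. The call under all 3 scalings was lost without any 1 of the 4 arrays, without limma's intensity trend and with its robust setting. The loss without either conditioned-medium array is not particular to Bhlhe22, because every probe set lost its quantile normalized call there. Without conditioned-medium replicate 2, the lowest array, the difference was -0.55 log2 after quantile normalization and -0.15 log2 as deposited, and without conditioned-medium replicate 1 it was -1.17 and -0.95 log2.

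Sox11 measured 8.45 and 8.63 log2 under EGF alone against 9.44 and 9.39 log2 under conditioned medium. Both arrays with conditioned medium exceeded both with EGF by more than the spread within either group. The rise was 0.88 ± 0.10 log2 (SE, limma adjusted p = 1.93e-04), larger than that of 97.0% of tested probe sets. It was 1.22 log2 as deposited (limma adjusted p = 1.92e-09) and 0.66 log2 with median-centred arrays (limma adjusted p = 7.85e-04). Without either EGF array Sox11 stayed past the threshold under all 3 scalings, with differences of 0.78 and 0.96 log2. Without conditioned-medium replicate 1 or 2 the difference was 0.86 or 0.91 log2 and the quantile normalized call was lost (limma adjusted p = 0.0761 and 0.0610), in fits where no probe set of the 21717 passed and 2575 and 2689 were higher at an unadjusted p under 0.05.

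Sox4, the SoxC relative of Sox11, had 7 probe sets of very different brightness. The brightest, 1383137_at, measured 13.18 and 13.15 log2 under EGF alone against 13.00 and 12.58 log2 under conditioned medium (-0.38 ± 0.11 SE, limma adjusted p = 0.0297). The next, 1373860_at, measured 12.01 and 11.87 log2 against 11.43 and 11.46 log2 (-0.49 ± 0.07 SE, limma adjusted p = 8.15e-04). Both had the conditioned-medium arrays below the EGF arrays. The largest difference was that of 1393571_at, at 7.28 and 7.32 log2 under EGF alone against 6.38 and 6.13 log2 under conditioned medium (-1.05 ± 0.16 SE, limma adjusted p = 9.59e-04). 1384000_at, at 8.58 and 8.59 log2 against 8.23 and 8.31 log2, differed by -0.31 ± 0.10 log2 (SE, limma adjusted p = 0.0440). The calls of 1383137_at and 1384000_at were lost when dim probe sets were kept in the test (limma adjusted p = 0.0518 and 0.0521). All 4 were lost without either conditioned-medium array, as were those of all other probe sets after quantile normalization. The difference of 1383137_at rested largely on conditioned-medium replicate 2: without it the value was -0.16 log2 after quantile normalization and 0.24 log2 as deposited, and without replicate 1 it was -0.59 and -0.37 log2. The calls of 1383137_at and 1384000_at were also lost without either EGF array and without limma's intensity trend, and that of 1393571_at without EGF replicate 2.

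The remaining 3 Sox4 probe sets did not pass after quantile normalization. 1383989_at measured 8.42 and 8.05 log2 under EGF alone against 8.02 and 7.75 log2 under conditioned medium, which do not overlap. 1375123_at measured 7.30 and 7.26 log2 against 7.04 and 7.32 log2, which overlap. 1375257_at, at 5.12 and 4.62 log2 against 4.98 and 4.58 log2, overlaps too and lies near the limit for dim probe sets of 4.77 log2. In all, 5 of the 7 had every conditioned-medium array below every EGF array, where 33.1% of tested probe sets did. As deposited 3 of the 7 were lower and 4 higher and none passed in limma (lowest adjusted p = 0.0764 and unadjusted p = 0.0348, both for 1393571_at), and with median-centred arrays 6 were lower and 5 passed, against 25.6% of tested probe sets. These probe sets share a gene and its samples and are not replicates of each other.

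**Figure D2:**
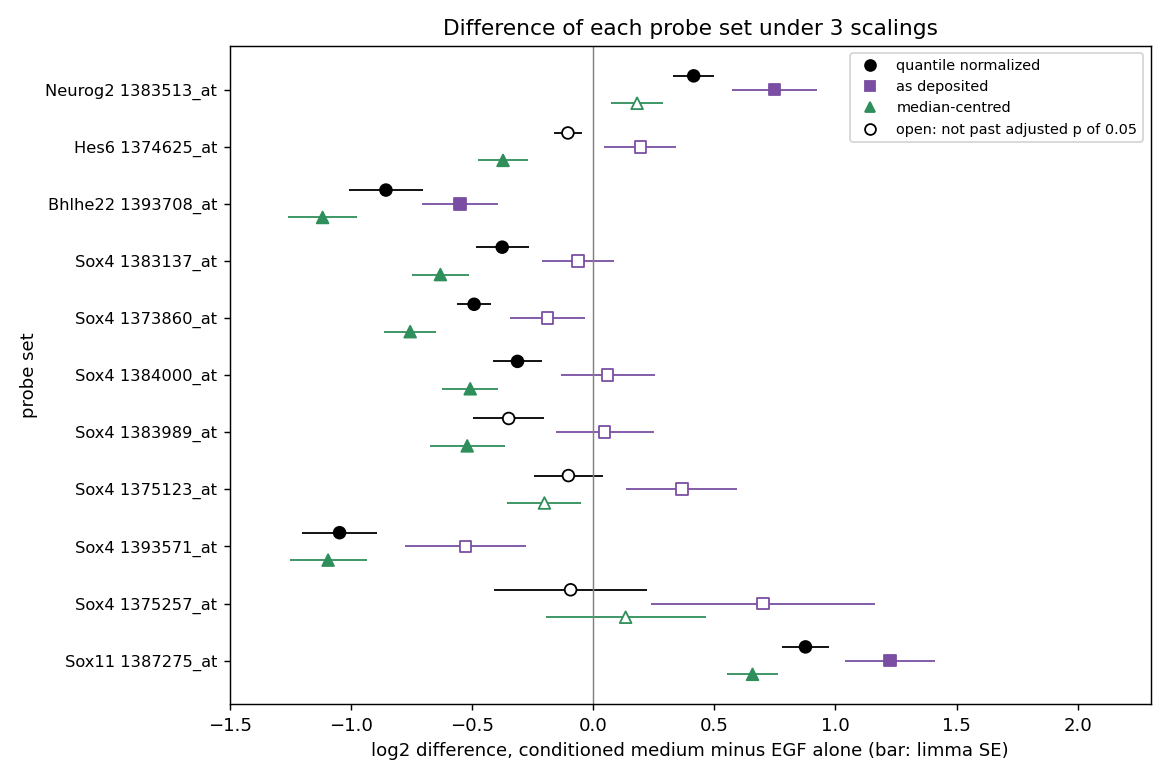
Log2 difference of each probe set, conditioned medium minus EGF alone, under 3 scalings, with limma's standard error as bars and open symbols where the adjusted p did not pass 0.05. Sox11 and Bhlhe22 have 3 filled symbols on the same side of 0, and the deposited values of the Sox4 probe sets lie on both sides.

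Sox11 was set against Sox4 within each array in the same way. As deposited, Sox11 minus the brightest Sox4 probe set was -4.77 and -4.53 log2 under EGF alone against -3.55 and -3.18 log2 under conditioned medium, a change of 1.29 log2. With each of the 7 Sox4 probe sets in turn, both conditioned-medium values exceeded both EGF values, and the change ran from 0.52 log2 with the dim 1375257_at to 1.75 log2 with 1393571_at. The exact two-sided permutation p was 0.333 for the brightest pair, the smallest that this design allows. The 7 changes share the Sox11 values, and a ratio within an array does not show which of its genes differed.

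**Figure D3:**
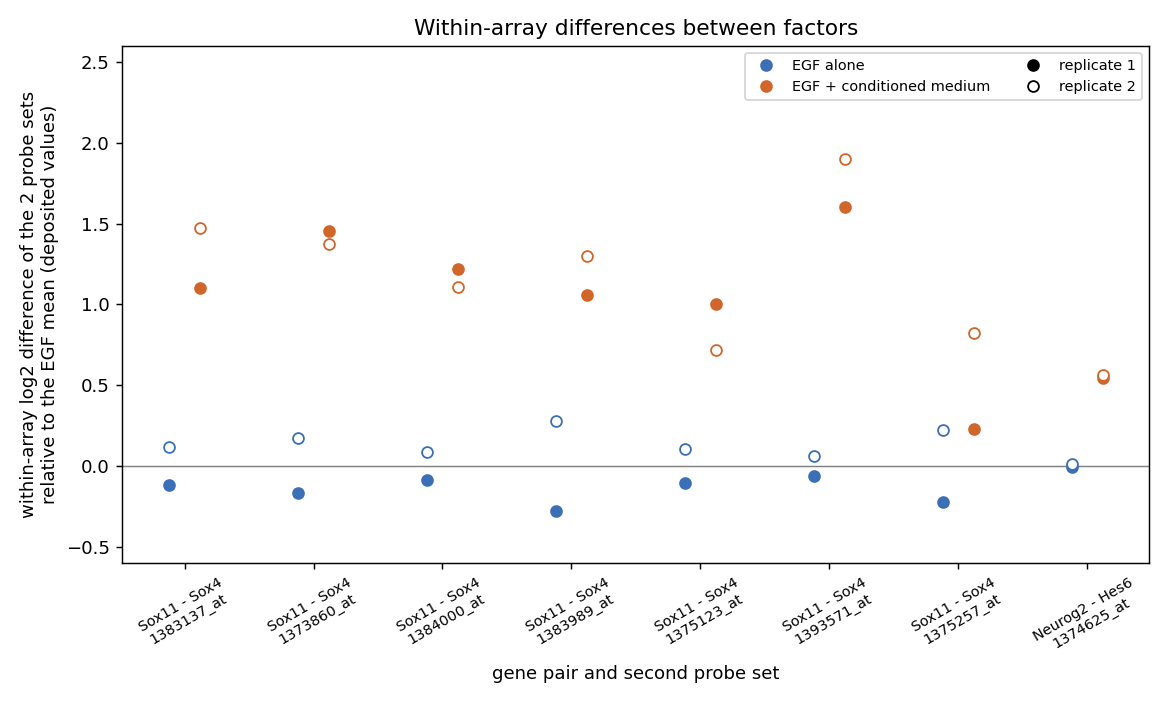
Within-array log2 difference of Sox11 and each Sox4 probe set, and of Neurog2 and Hes6, from deposited values and relative to the EGF mean of each pair. Both conditioned-medium points lie above both EGF points in all 8 pairs.

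Genes whose values followed Sox11 or Bhlhe22 most closely over the 4 arrays were ranked by the root mean square difference of quantile normalized log2 values after each probe set's mean was subtracted. For Sox11 they were Tmem176a (0.0069 log2), Mpped1 (0.018 log2) and Cd9 (0.021 log2), and 179 genes lay within 0.1 log2. Mpped1 had a mean of 5.05 log2, near the limit for dim probe sets of 4.77 log2. Predicted LOC and RGD symbols were not named but were counted. For Bhlhe22 they were Atp2b3 (0.020 log2), Hapln4 (0.049 log2) and Cgm4 (0.062 log2), and 8 genes lay within 0.1 log2. Their means of 6.08, 5.88 and 5.63 log2 lay far below that of Bhlhe22, 11.51 log2. With 4 arrays, many genes of a similar difference are close by this measure.

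The genes around these factors were read from their brightest probe set, of which 8.53% of 11494 genes rose and 1.78% fell. Of 13 other proneural and neurogenic factors tested, 1 fell and 12 did not pass under all 3 scalings. The median difference over the 13 was -0.47 log2, and 6 of them were lower after quantile normalization against 13.3% of all genes. Without limma's intensity trend 5 were lower, and fewer than that when either EGF array was left out. Myt1, a zinc finger factor that helps cells escape lateral inhibition, fell by 0.75 log2, from 10.39 and 10.52 log2 to 9.72 and 9.69 log2. Its call under all 3 scalings was lost without any 1 of the 4 arrays and without limma's intensity trend. Neurod1, a helix-loop-helix factor downstream of the proneural genes that serves amacrine and photoreceptor cells, measured 13.42 and 13.44 log2 under EGF alone against 12.99 and 13.00 log2 under conditioned medium (-0.44 ± 0.055 SE). Its 2 groups lie well apart after quantile normalization, but it did not pass as deposited (-0.16 log2). A further 7 factors of this list were too dim to be tested, among them Olig2 and the third SoxC gene, Sox12. Neurod4 and Pou4f2 were not analysed here.

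The 3 E proteins, which pair with Neurog2 and its relatives, did not pass under all 3 scalings. Tcf3 differed by 0.50 ± 0.11 log2 (SE), Tcf12 by 0.23 ± 0.07 log2 and Tcf4 by 0.02 ± 0.07 log2. Tcf3 and Tcf12 were past the threshold after quantile normalization, where 15.2% of genes were higher. Both calls were lost when either EGF array was left out.

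Genes that oppose proneural factors, listed with the Notch receptors and ligands, held 5 that rose among 19 tested, and 14 did not pass, with a median difference of 0.23 log2. Id3, Id1 and Id2, which bind E proteins and keep them from proneural partners, rose by 2.45, 1.74 and 1.14 log2. The Notch targets Hes1 and Hey1, which repress proneural genes, rose by 0.64 and 0.55 log2. Hes1 measured 9.63 and 9.55 log2 under EGF alone against 10.43 and 10.03 log2 under conditioned medium, and the groups did not overlap. Hes5, another Notch target, differed by 0.16 ± 0.09 log2 (SE) at its brightest probe set and by -0.48 log2 at the other, and did not pass. The Notch ligands Dll1 (0.07 ± 0.09 SE) and Dll3 (0.04 ± 0.13 SE), which proneural proteins induce, did not pass either. Without EGF replicate 2 the count of rises was 3. Without either conditioned-medium array no gene of this, the preceding or the following lists passed after quantile normalization, as for all probe sets in those limma fits.

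Among 15 genes of proneural response and cell cycle exit tested, 1 rose, 1 fell and 13 did not pass, with a median difference of 0.04 log2. The cell cycle inhibitor Cdkn1c rose by 1.03 log2, from 10.93 and 10.98 log2 to 12.09 and 11.89 log2. The neuronal RNA-binding protein Elavl4 fell by 0.80 log2, from 10.02 and 9.83 log2 to 8.97 and 9.28 log2. The list held 1 rise without either EGF array as well, whereas the fall of Elavl4 was lost without any 1 of the 4 arrays and without limma's intensity trend.

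The list of newborn neuron genes, which SoxC and proneural factors help to switch on, held 6 that fell among 17 tested. Among the 6 was Elavl4, which like Elavl3 is also on the list of proneural response and cell cycle exit. The newborn neuron list held 1 that rose, Tead2, which is listed as a SoxC target. The median difference was -0.54 log2, and after quantile normalization alone 13 of the 17 were lower and 1 higher. The examples with the smallest p were the growth cone protein Crmp1 (-0.89 log2), the stathmin Stmn3 (-0.81 log2), the microtubule protein Mapt (-0.94 log2) and the neuronal tubulin Tubb3 (-0.75 log2). Tubb3, a gene that SoxC proteins are known to activate, measured 10.98 and 10.94 log2 under EGF alone against 10.18 and 10.25 log2 under conditioned medium at its brightest probe set. The other Tubb3 probe set differed by 0.24 log2. Tead2, a further gene reported downstream of SoxC proteins, rose by 0.55 log2, from 10.12 and 10.11 log2 to 10.72 and 10.61 log2, a call that was lost without any 1 of the 4 arrays and without limma's intensity trend. The 6 falls numbered 2 without EGF replicate 1 and 0 without EGF replicate 2 (limma), while 7 and 8 of the 17 were lower after quantile normalization alone in those fits.

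Of 6 ganglion cell factors tested, Myt1, which is also on the list of proneural factors, fell, with the same loss of its call when any 1 array was left out, and 5 did not pass. The median difference was -0.43 log2. Isl1, a LIM homeobox factor that acts after Atoh7, differed by -0.35 ± 0.12 log2 (SE) at its brightest probe set and by 0.01 log2 at the other.

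**Figure D4:**
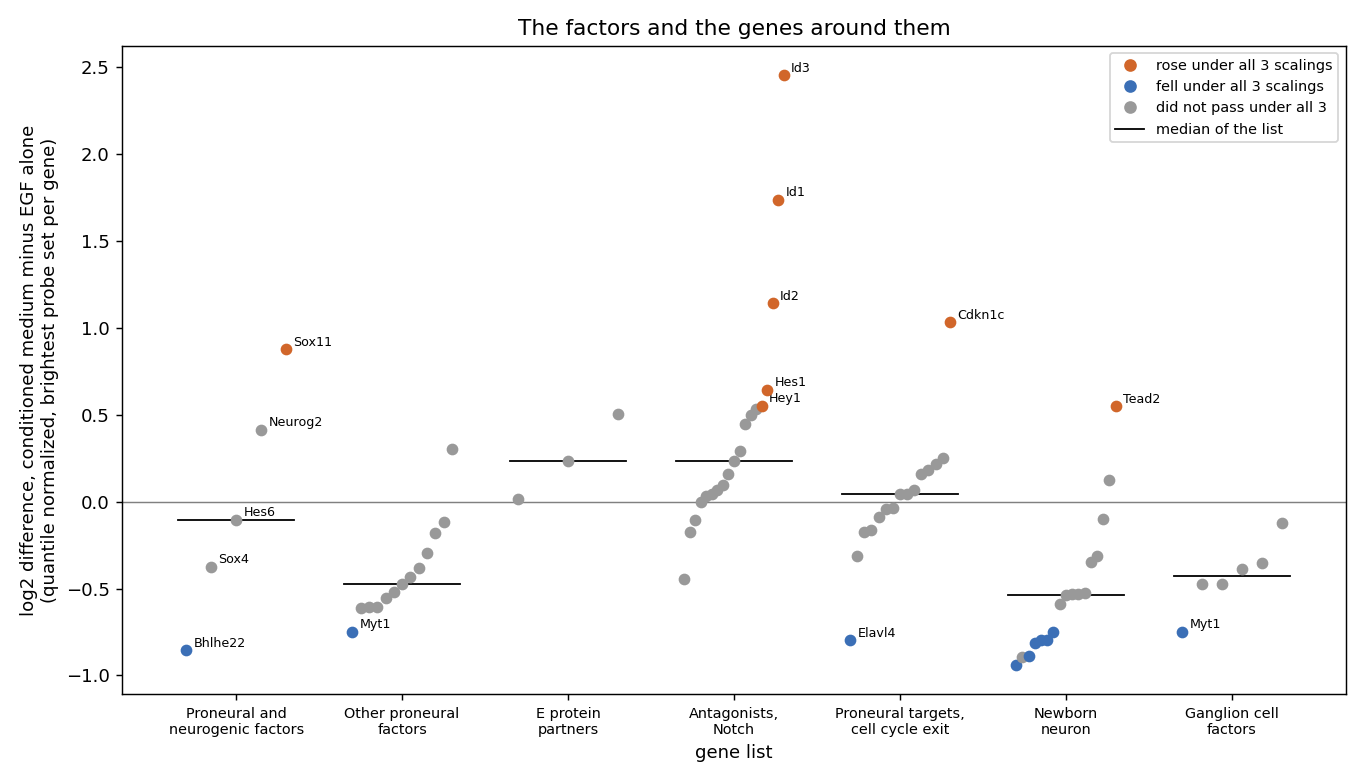
Quantile normalized log2 difference of the brightest probe set of each tested gene, with the list's median as a line, for the factors, the other proneural factors, the E proteins, the antagonists and Notch genes, the proneural response, the newborn neuron genes and the ganglion cell factors. Orange points rose and blue points fell under all 3 scalings, and grey points did not pass. Id3, Id1 and Id2 are the highest points of these lists, and the newborn neuron genes lie mostly below 0.

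Markers of other cells moved with the condition in the same arrays, and their part in these results was not tested. Of all genes 8.53% rose at their brightest probe set. Of tested markers, 6 of 11 of microglia, 11 of 12 mesenchymal, 3 of 9 endothelial, 3 of 9 lens and 2 of 6 astrocyte markers rose. The 2 astrocyte rises were Slc1a3 and Pdgfra, and Pdgfra is also counted among the mesenchymal rises. The astrocyte markers Gfap (-0.12 log2), Aqp4 (-0.57 log2) and S100b (0.39 log2) did not pass under all 3 scalings. Their summed linear levels over all markers with a probe set were 608 to 651 with EGF alone and 992 to 1053 with conditioned medium for microglia, 7355 to 9757 and 17305 to 18054 for mesenchymal cells, 4684 to 4858 and 6543 to 6722 for endothelial cells, 587 to 607 and 954 to 986 for lens, and 3931 to 4069 and 5521 to 5539 for astrocytes. Slc1a3 made up 41.7% to 50.6% of the astrocyte sum. A single gene made up most of the mesenchymal and endothelial sums. Vim, which retinal progenitors also express, was 80.0% to 86.5% of the mesenchymal sum. Kdr, which they express too, was 80.8% to 86.2% of the endothelial sum. Without Vim the mesenchymal sum was 1222 to 1313 with EGF alone and 3357 to 3468 with conditioned medium. Without Kdr the endothelial sum was 668 to 741 and 1158 to 1290. Its brightest remaining marker was Mcam, at 7.68 and 7.92 log2 with EGF alone against 9.36 and 9.19 log2 with conditioned medium. Flt1 and Esam were the other endothelial rises. Cldn5 and Eng differed by 0.67 and 0.35 log2, and Vwf, Plvap and Egfl7 by -0.09, -0.04 and -0.02 log2. The endothelial markers Pecam1, Tek, Tie1, Emcn, Erg, Sox17 and Sox18, the microglial markers C1qb, Itgam, P2ry12 and Cd74 and the mesenchymal markers Rgs5, Lum, Dcn, Twist2, Cspg4 and Thy1 were too dim to be tested, as were 8 lens markers and the astrocyte marker Aldh1l1. Among markers that rose, Flt1 (3.86 and 3.78 log2) and Tagln (4.67 and 4.62 log2) lay under the dim limit of 4.77 log2 with EGF alone. They passed that filter only through the conditioned-medium arrays. Ptprc (4.41 and 4.79 log2) and C1qc (4.85 and 4.40 log2) straddled the limit with EGF alone. Their EGF means lay under it, so they too passed the filter only through the conditioned-medium arrays. Fcgr3a and Crybb1 straddled the limit with EGF means above it. With the lowest 50% of probe sets left out, 2 microglial markers were tested and 1 rose. The summed newborn neuron genes went the other way, from 34075 to 37876 with EGF alone to 28612 to 28673 with conditioned medium.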

How the data were processed

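Total RNA of 4 neurosphere cultures was hybridized to Affymetrix rat arrays. The deposited values are log2 signals that the authors computed by RMA (robust multi-array average) with GenePattern, per the labels. Which RMA options were set is not given in the sources used here. Of 31099 probe sets, 57 were array controls and stayed out of tests; 20832 had 1 gene symbol in the platform annotation, 436 several and 9831 none. Here values were quantile normalized, because the deposited medians differed, and probe sets in the lowest 30% of mean value (under 4.77 log2) were left out, which left 21717. limma 3.58.1 in R 4.3.3 (lmFit, two-sided eBayes with the intensity trend, p adjusted by Benjamini-Hochberg over all 21717) compared the groups without a block, and was tested on simulated data. On deposited values limma's prior outweighed the 2 residual degrees of freedom, so the spread came from the trend alone. Lists used each gene's brightest probe set. All probe sets of the factors were named, with up to 4 genes per list and direction by smallest p and 12 genes in any case. The factors and lists were chosen with earlier results of these data known. The alternatives were other scalings, filters and variance settings, the brightest probe set alone, a replicate block and leaving out each array. The number of arrays limits the precision.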

Additional observations from a re-analysis of the deposited data

How the results depend on the processing

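The counts of calls depended on the scaling. After quantile normalization 2738 probe sets were higher and 2808 lower; as deposited these were 8318 and 328, with median-centred arrays 1825 and 5568, and without the intensity trend 1638 and 1626. The single brightest probe set per gene gave 1671 lower (fewer were tested), and 1047 higher and 205 lower under all 3 scalings, against 1579 and 328. Under all 3, 210 were lower without the trend and 45 with the replicate block. Of the factors' probe sets, 1 was higher after median centring and 1 without the trend, against 2. Those lower, 5 after quantile normalization, numbered 1 as deposited, 3 without the filter, 2 without the trend, 3 with robust eBayes and 2 with the brightest probe set alone. Bhlhe22, the 1 that fell under all 3 scalings, was lost (0) without the trend, with robust eBayes and with the replicate block (as deposited, limma adjusted p = 0.14), where 4, 5 and 6 of the probe sets were lower at an unadjusted p under 0.05 in limma. Among 66 other neurogenic genes tested, 13 were higher and 19 lower after quantile normalization; 21 and 7 were as deposited, and 7 were higher with median-centred arrays. Under all 3 scalings 7 rose and 7 fell, 4 and 2 without the trend, and the falls were 0 with the replicate block.

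Leaving out 1 array gave 0 to 1188 higher and 0 to 815 lower probe sets after quantile normalization, and 0 to 1054 and 0 to 119 under all 3 scalings. For the factors it gave 0 to 1 higher and 0 to 2 lower, and 0 to 1 and 0 to 0 under all 3. For the other neurogenic genes it gave 0 to 7 and 0 to 10, and 0 to 5 and 0 to 2. The zeros over all probe sets came without either conditioned-medium array, where limma at an unadjusted p under 0.05 had 2575 and 2689 higher and 2916 and 3095 lower; the lone array left in a group is assumed to vary like the other group. Values changed sign as deposited for Hes6 (0.20 log2) and the Sox4 probe sets 1384000_at (0.060), 1383989_at (0.047), 1375123_at (0.37) and 1375257_at (0.70), and for 1375257_at also under median centring (0.13). When 1 array was left out, 1375257_at ran from -0.34 to 0.15 log2 and 1375123_at from -0.25 to 0.042 log2. The cause was not tested. Within-array changes kept their direction, at 1.07 to 1.44 log2 for Sox11 minus Sox4 and 0.50 to 0.54 log2 for Neurog2 minus Hes6 when 1 array was left out.

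The difference between replicates 1 and 2 was compared between the groups over the 21717 tested probe sets. The correlation was -0.04 after quantile normalization and -0.12 as deposited. A single replicate difference per group cannot decide a pairing, and the numbers are not taken to pair the samples.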
